A study of Mus musculus with 6 samples.

Results

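The miR-297, miR-466, miR-467 and miR-669 families are groups of near-identical mouse miRNAs, most of them encoded by tandem repeats inside the gene Sfmbt2. Members were chosen by name: every mature miRNA called miR-297, miR-466, miR-467 or miR-669 followed by a letter or an arm, on all precursors. This gave 43 of the 535 mature miRNA names in the deposited table, and 254 of its 792 rows, where a row pairs a mature miRNA with a precursor. By family there were 5 miR-297 names, 17 miR-466 names, 7 miR-467 names and 14 miR-669 names.

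Small RNA was sequenced from nephron progenitors and from whole kidney of wildtype CD1 mouse embryos at embryonic day 15.5, with 3 libraries in each group. Nephron progenitors, the mesenchymal cells that give rise to nephrons, were enriched by limited digestion and magnetic removal of cells bearing CD140a, CD105, Epcam or Ter119. Whole kidney was the kidney tissue left after that digestion, and each replicate pooled the embryos of a single litter. RNA came from a miRNeasy Micro Kit in progenitors and a Mini Kit in whole kidney, so kit, isolation and cell type cannot be told apart.

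A miRNA is cut from a hairpin precursor, and either arm of the hairpin, 5p or 3p, can be loaded into an Argonaute protein. Its seed, the bases from position 2 to 8, pairs with target mRNAs. The Sfmbt2 cluster is specific to rodents, is expressed from the paternal allele together with its imprinted host gene in the placenta, and is also known from embryonic stem cells. Sfmbt2 itself encodes a Polycomb group protein.

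Counts on known miRNAs, with 1 value per mature name, came to 393951, 436112 and 333850 in the progenitor libraries MNP1, MNP2 and MNP6. The whole kidney libraries, in the order MWK1, MWK2, MWK6, held 349241, 360221 and 355848. Values of a group are given in this order of its libraries throughout. Levels are CPM, counts brought to a common library total, with TMM factors that set the libraries to a shared reference. A total of 3 counts corresponded to between 6.54 CPM in MNP2 and 9.45 CPM in MWK2, and such floors and the intervals below do not cover errors of library preparation. The members were thinly covered, since 27 of the 43 had a mean under 10 counts per library and 9 had more than 10 counts in every library.

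Of the 254 member rows, 242 (95.3%) lay on chromosome 2, and all 242 fell within Sfmbt2 (chr2:10370510-10595253, plus strand, GRCm38). Chromosome 3 held 4 rows, chromosomes 7 and 13 held 1 row each, and 6 rows had no coordinates. By family, chromosome 2 held 16 of 17 miR-297 rows, 106 of 116 miR-466 rows, 47 of 47 miR-467 rows and 73 of 74 miR-669 rows. No row within Sfmbt2 belonged to a miRNA outside the 4 families. Of the 43 names, 40 had a row on chromosome 2. The other 3 were miR-466i-5p, miR-466k and miR-669n.

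The 63 precursors on chromosome 2 were all on the plus strand, as the host gene is, and spanned 50.5 kb (chr2:10466663-10517164). In the GENCODE annotation this stretch lay inside a single intron of 62472 bases, which is intron 10 or 11 in the 2 transcripts that span it. The precursors followed a repeated order. Of 11 precursors named mir-467a or mir-467b, 10 were followed by a mir-466 precursor that started 282 to 292 bases further on, and then by a mir-669 precursor that started 507 to 518 bases further on. The starts of neighbouring mir-467a or mir-467b precursors were 2413 to 4880 bases apart with a median of 2454, and 9 of the 10 distances were between 2413 and 2470 bases. The precursor mir-669c (chr2:10509296-10509404) lay beyond the last of these units, between mir-297c and mir-669a-2.

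**Figure D1:**
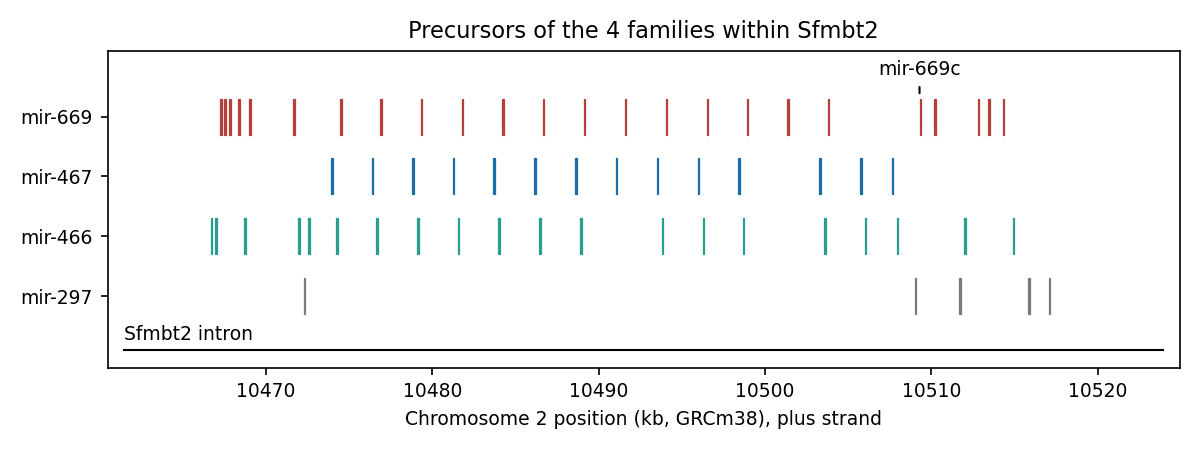
Position of the 63 precursors of the 4 families on chromosome 2 (x axis, kb, GRCm38), with a bar for each precursor, a line for each family and the Sfmbt2 intron drawn at the bottom. The mir-467, mir-466 and mir-669 precursors repeat in that order through the middle of the intron, and mir-669c lies to the right of the repeated units.

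Short reads cannot separate repeats that are alike, and many names carried the same counts. Of the 43 names, 18 (41.9%) had counts identical in all 6 libraries to those of another member, in 8 sets of up to 3 names. Among the 492 other names, 16 (3.25%) shared identical counts with another name. The 43 names thus held 33 distinct sets of counts, and 20 names matched another member when a difference of 1 count per library was allowed. Members took up 5.91 rows per name, against 1.09 for other names, and the most widely listed name stood on 14 rows. On the other side, 15 names stood on a single row with counts of their own, among them miR-669c-5p, miR-467c-5p, miR-467e-5p, miR-669l-5p, miR-669o-5p and miR-669n. Whether reads counted for these names also match other copies was not tested.

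The identical sets crossed the family letters. miR-297a-3p, miR-297b-3p and miR-297c-3p were 1 set, and miR-466b-3p, miR-466c-3p and miR-466p-3p were another. The pair miR-466a-3p and miR-466e-3p differed from that second set by 1 count in MWK1. Further pairs were miR-466b-5p with miR-466o-5p, miR-467a-3p with miR-467d-3p, miR-669a-3p with miR-669o-3p, and miR-669a-5p with miR-669p-5p. The pair of miR-466m-5p and miR-669m-5p joined names of different families. Values for any of these names are therefore values of the set, and which copy produced the reads cannot be told apart.

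All 43 members exceeded 10 counts when the 6 libraries were added up and entered edgeR's quasi-likelihood test. P-values were adjusted over 525 miRNAs by the Benjamini-Hochberg method, and the threshold was 0.05. Of the 43 members, 1 (2.33%) passed, higher in progenitors, and 0 passed as lower. Over all 525 miRNAs 192 passed, a share of 36.6%, with 102 higher (19.4%) and 90 lower (17.1%). An unadjusted p under 0.05 was reached by the same member and no other. DESeq2 likewise called 1 member, beside 31.0% of all miRNAs, and limma-voom called 1, beside 34.7%. In all 3 tools the member was miR-669c-5p.

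The members' log2 fold changes, progenitors over whole kidney, lay on both sides of 0, with 23 positive and 20 negative fitted values from −1.26 to 1.30, both ends from names with few counts. Their median was 0.03, against −0.01 over all 525 miRNAs. These figures repeat names that share counts. With each of the 33 distinct sets of counts taken once, 15 values were positive and 18 negative, and the median was −0.06. The median absolute log2 fold change was 0.42 for members and 0.61 for all miRNAs tested, while the median standard error (SE) was 0.564 for members and 0.337 for all. In bulk libraries such as these, a change in the number of cells that hold a miRNA and a change in its amount per cell cannot be told apart.

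Depth differed between members and the other miRNAs, so the calls were also counted by mean count per library, a split chosen after the data were seen. Below 10 counts, 0 of 27 members and 29 of 164 other miRNAs (17.7%) passed in edgeR. From 10 to 50 counts, 0 of 12 members and 61 of 119 others (51.3%) passed. In that range the median SE was 0.367 for members and 0.324 for others, and the median absolute log2 fold change was 0.12 for members and 0.83 for others. Above 50 counts, 1 of 4 members and 101 of 199 others (50.8%) passed. Members with identical counts are repeated here: the 27 and the 12 hold 20 and 9 distinct sets of counts, and the 4 include miR-467a-5p and miR-467b-5p.

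**Figure D2:**
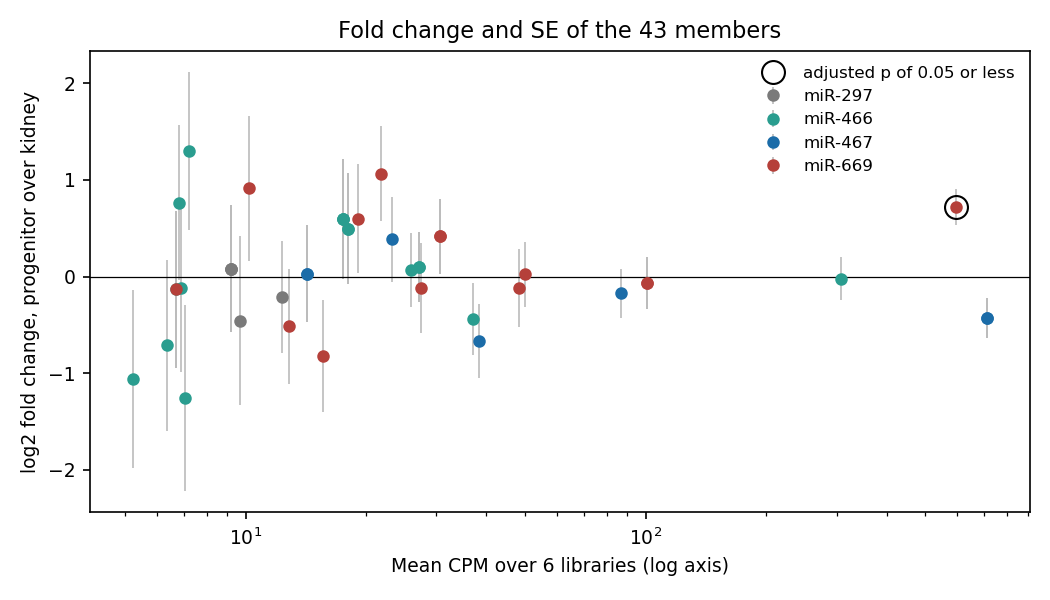
Log2 fold change of each of the 43 members, progenitors over whole kidney (y axis), against its mean CPM over the 6 libraries (x axis, log scale), coloured by family, with bars of 1 SE. The ringed point is miR-669c-5p, the single member at an adjusted p of 0.05 or less; names with identical counts fall on the same point, and the points at the left rest on few counts.

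miR-669c-5p was the single member called, and in mean CPM over the 6 libraries it came after miR-467a-5p and miR-467b-5p. It was counted 299, 325 and 298 times in progenitors against 141, 135 and 171 times in whole kidney. This corresponded to 736, 708 and 783 CPM in progenitors and to 424, 425 and 499 CPM in whole kidney. Every progenitor library was above every whole kidney library. The means were 742 ± 37.9 CPM and 449 ± 43.1 CPM (SD, n = 3 each). The log2 fold change was 0.72 (SE 0.187, edgeR adjusted p = 0.0079), or 1.65-fold with a 95% interval from 1.25 to 2.18. Among the 525 miRNAs it ranked 129 by p. Without MWK1 the edgeR adjusted p was 0.053 at a log2 fold change of 0.69, so the call was lost.

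The ratio of miR-669c-5p to other members within a library does not depend on scaling, and was taken after its values had been seen. Set against miR-467a-5p, it was 1.15, 1.22 and 1.31 in progenitors, and 0.685, 0.430 and 0.590 in whole kidney. miR-669c-5p was thus the more frequent of the pair in each progenitor library and the less frequent in each whole kidney library. Set against all other members, with identical names counted once and miR-467b-5p left out, it was 0.462, 0.431 and 0.491 in progenitors and 0.275, 0.197 and 0.276 in whole kidney. miR-467a-5p, lower in mean in progenitors, enters both of these ratios. Set against miR-466i-5p the ratio was 2.199, 2.321 and 2.838 in progenitors and 1.47, 1.10 and 1.97 in whole kidney. Set against miR-669a-5p it was 7.48, 5.91 and 10.3, with 4.70, 3.38 and 5.34 in whole kidney. The 4 ratios describe a member already chosen by its call. The exact permutation p of each, two-sided, was 0.1, the smallest that 3 against 3 libraries can give, and it adds no support.

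Averaged over the 6 libraries, the most abundant member was miR-467a-5p, listed on 11 rows of chromosome 2 that all held the same counts. In progenitors alone miR-669c-5p stood higher, at a mean of 742 CPM against 608 CPM. miR-467a-5p was counted 261, 267 and 228 times in progenitors against 206, 314 and 290 times in whole kidney. miR-467b-5p had the same counts except for 266 in MNP2, and its values are not independent of those of miR-467a-5p. In CPM, miR-467a-5p reached 643, 582 and 599 in progenitors and 620, 989 and 847 in whole kidney. MWK1 lay within the range of the progenitor libraries, so the groups overlapped. The log2 fold change was −0.43 (SE 0.207, edgeR adjusted p = 0.13), with a 95% interval from −0.88 to 0.02. Without MWK2 it was −0.28 (edgeR adjusted p = 0.45) and without MWK1 −0.59 (edgeR adjusted p = 0.073). With library totals it was −0.22 (edgeR adjusted p = 0.46).

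The 3 miRNAs outside the families whose log2 CPM, with 1 CPM added, followed miR-467a-5p most closely were miR-103-3p, miR-351-3p and miR-301a-5p. Their Pearson r over the 6 libraries was 0.924, 0.893 and 0.860, a description over libraries that share their groups. miR-103-3p stood at 2900, 2619 and 2783 CPM in progenitors and at 3040, 3448 and 3287 CPM in whole kidney. miR-351-3p ranged from 17.2 to 34.6 CPM and miR-301a-5p from 65.7 to 101 CPM. None of the 3 passed the edgeR test.

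miR-466i-5p was the most abundant miR-466 member, and its 3 rows were on the precursors mir-466i, mir-466k and mir-466q, outside Sfmbt2. It stood at 335, 305 and 276 CPM in progenitors and at 289, 387 and 254 CPM in whole kidney. The highest and the lowest value were both in whole kidney. The log2 fold change was −0.020 (SE 0.224, edgeR adjusted p = 0.96), and its 95% interval ran from −0.50 to 0.46. Its rows were the only rows of the table with fractions of a count.

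Among the remaining miR-669 names, miR-669a-5p and miR-669p-5p shared 40, 55 and 29 counts in progenitors against 30, 40 and 32 in whole kidney. Their CPM was 98.2 ± 21.8 and 103 ± 19.8 (SD, n = 3 each). The log2 fold change was −0.06 (SE 0.268). The 3p pair miR-669a-3p and miR-669o-3p stood on 12 precursors, 11 of them among the 14 of that 5p pair, and was counted 17, 18 and 9 times in progenitors and 10, 10 and 6 times in whole kidney. The groups overlapped for both arms. miR-669l-5p had 14, 20 and 28 counts in progenitors and 14, 16 and 19 in whole kidney, with means of 50.5 and 49.3 CPM. miR-669o-5p had 22, 13 and 22 counts against 11, 11 and 28, with means of 46.8 and 49.8 CPM. Neither passed in edgeR, with adjusted p of 0.97 and 0.87.

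miR-669n, on chromosome 3, was counted 12, 13 and 12 times in progenitors against 3, 2 and 9 times in whole kidney. Its CPM of 29.5, 28.3 and 31.5 in progenitors lay above 9.02, 6.30 and 26.3 in whole kidney, with the narrowest gap at MWK6. The log2 fold change was 1.06 (SE 0.493, edgeR adjusted p = 0.12). Without MWK6 it was 1.91 with an edgeR adjusted p of 0.017, so this library decided the call. The groups did not overlap for 3 members, miR-669c-5p, miR-669n and miR-466p-5p. That is 6.98% of members, beside 46.7% of all 525 miRNAs.

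The other miR-467 names were less abundant than miR-467a-5p. miR-467e-5p had 29, 43 and 30 counts in progenitors and 30, 33 and 28 in whole kidney, with means of 81.3 and 92.0 CPM. miR-467c-5p had 9, 16 and 12 counts against 9, 15 and 23, with a log2 fold change of −0.67 (SE 0.380, edgeR adjusted p = 0.21). Without MWK6 it was −0.31 (edgeR adjusted p = 0.61) and without MWK1 −0.94 (edgeR adjusted p = 0.084). The 3p arm shared by miR-467a-3p and miR-467d-3p had 7, 7 and 4 counts against 5, 5 and 4. Averaged over the 6 libraries, miR-467a-5p was at 713 CPM and miR-467a-3p at 14.2 CPM, a ratio of 50.1 between the arms. Each arm was listed on 11 precursors, 10 of them shared, and which copy gave the reads cannot be told apart.

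**Figure D3:**
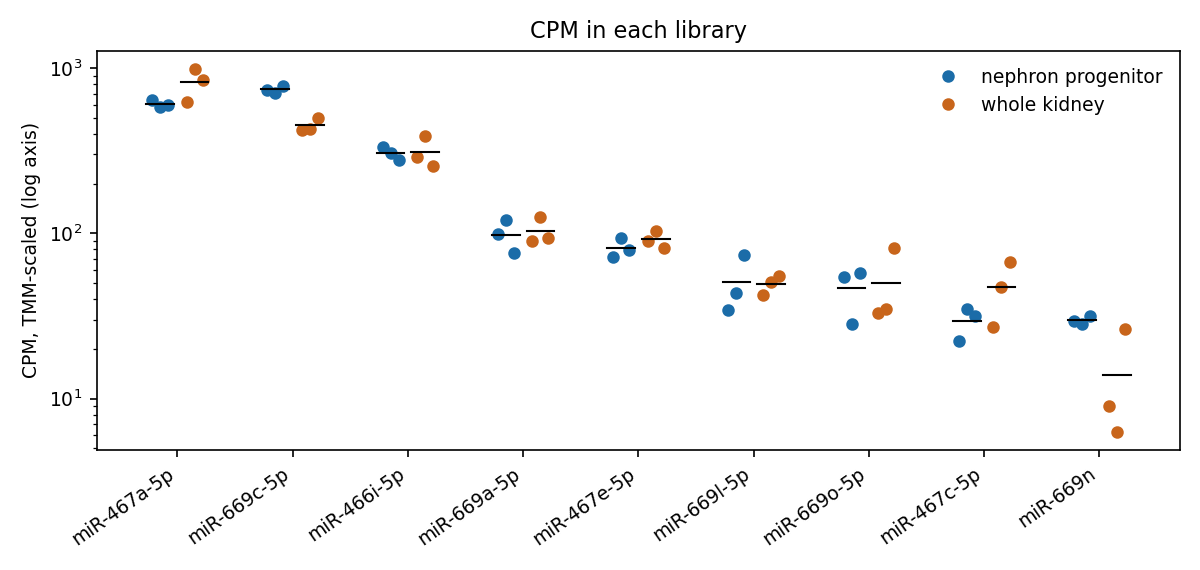
TMM-scaled CPM (y axis, log scale) of 9 members in each library, with progenitors in blue and whole kidney in orange; black lines are means of 3 libraries. miR-669c-5p and miR-669n are the 2 of these members whose groups do not overlap, and miR-467a-5p ranges from 582 to 989 CPM.

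The low members had wide errors. miR-466p-5p was counted 4, 5 and 4 times in progenitors and 0, 2 and 2 times in whole kidney. miR-466k had 3, 1 and 1 counts against 0, 4 and 6, and miR-466f had 1, 1 and 2 against 2, 4 and 1. The fitted log2 values of these names, among them both ends of the members' range, had SEs of 0.817, 0.967 and 0.921, and at counts this near the floor they are no measure of a fold. The edgeR adjusted p of the 3 names was 0.26, 0.37 and 0.43.

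The 3p arms of the miR-466 repeats varied within both groups. miR-466a-3p and miR-466e-3p shared 4, 16 and 7 counts in progenitors against 2, 6 and 7 in whole kidney, and their log2 fold change was 0.50 (SE 0.575). Without MNP2 it was −0.12. For miR-297, the shared 3p counts were 3, 6 and 3 against 2, 2 and 5, and miR-297b-5p had 3, 4 and 7 against 4, 5 and 4. Neither miR-297 value differed beyond its SE. The other 19 members had between 0 and 18 counts in a library and fitted log2 values from −0.82 to 0.91, and the lowest edgeR adjusted p among them was 0.32.

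Summed over the 43 names, the members reached 3206, 3272 and 3193 CPM in progenitors against 2785, 3851 and 3389 CPM in whole kidney. The progenitor libraries lay close together and within the range of whole kidney. With identical names counted once the sums were 2972, 2930 and 2977 CPM against 2583, 3574 and 3152 CPM. The means were then 2960 ± 25.9 and 3103 ± 497 CPM (SD, n = 3 each). Leaving out miR-467b-5p as well, a step added after the data were seen, gave 2353 ± 24.6 and 2285 ± 311 CPM.

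The families differed in how these sums were spread, counted once and without miR-467b-5p. The sets of miR-466a-3p and miR-466b-3p, with nearly the same counts, were both kept. miR-669 names summed to 1054, 1054 and 1154 CPM in progenitors and to 734, 762 and 838 CPM in whole kidney. Without miR-669c-5p, a sum added after the data were seen, they were 318, 346 and 371 CPM against 310, 337 and 339 CPM, so the gap between the groups lay in that name. miR-467 names summed to 759 ± 19.0 CPM in progenitors and 992 ± 214 CPM in whole kidney, miR-466 names to 477 ± 34.2 and 482 ± 99.4 CPM, and miR-297 names to 29.0 ± 12.7 and 33.5 ± 9.27 CPM (SD, n = 3 each).

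By arm, counted the same way, 5p names summed to 2186 ± 40.0 CPM in progenitors and 2156 ± 288 CPM in whole kidney. The 3p names summed to 130 ± 37.2 and 97.8 ± 17.0 CPM (SD, n = 3 each). This 3p sum holds both near-identical sets of miR-466a-3p and miR-466b-3p. Each had a mean of 21.0 CPM in progenitors, with 15.1 and 14.1 CPM in whole kidney. The median log2 fold change was −0.12 over the 25 names of 5p arms and 0.42 over the 15 names of 3p arms, many of which repeat the same counts. The 3 members without a chromosome 2 row summed to 339 ± 31.0 and 334 ± 62.6 CPM.

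Mature sequences were found in RefSeq (GRCm38.p6) for 2 of the 43 members, miR-669n and miR-466k, both on the plus strand of chromosome 3. Both carry UG repeats and are shown with the seed in capitals, at chr3:115979905-115979924 and chr3:85467396-85467418. UG repeats in the other members were not examined.
miR-669n: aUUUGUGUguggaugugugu
miR-466k: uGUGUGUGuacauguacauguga
Their seeds differed, and each sequence held 7 UG steps. The hairpins, at chr3:115979902-115979955 and chr3:85467377-85467498 on the plus strand, are shown with the mature miRNA in capitals.
mir-669n: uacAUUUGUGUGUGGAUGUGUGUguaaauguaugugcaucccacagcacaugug
mir-466k: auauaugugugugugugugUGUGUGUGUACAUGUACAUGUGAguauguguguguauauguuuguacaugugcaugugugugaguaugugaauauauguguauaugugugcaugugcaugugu
UG steps numbered 13 in the 54 bases of the first and 37 in the 122 bases of the second.

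The letters UGUGUGUG were searched in the mature sequences of RefSeq, on the mature strand, and occurred in 7 of 1679 names (0.417%). All 7 were in the deposited table, 1.59% of its 440 names with a sequence, and 5 of them were outside the families. Only 2 of the 43 members had a sequence to search, so numbers inside and outside the families cannot be compared. The letters ACACACAC occurred in 4 names, none of them among the 440 names of the table with a sequence. No member of a 3p arm had a sequence, so these letters were not searched in those members. The 5 miRNAs outside the families are given for comparison, with the seed in capitals.
miR-1187: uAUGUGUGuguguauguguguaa
miR-574-5p: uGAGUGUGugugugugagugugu
miR-3082-5p: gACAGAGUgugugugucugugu
miR-672-5p: uGAGGUUGguguacuguguguga
miR-32-3p: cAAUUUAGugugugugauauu
They lie at chr5:82798964-82798986 (minus strand), chr5:64970328-64970350 (plus), chr17:25831406-25831427 (minus), chrX:104116228-104116250 (minus) and chr4:56895232-56895252 (minus). None had the seed of miR-669n or miR-466k.

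Of these 5 miRNAs, 0 were called higher in progenitors and 1 lower by edgeR, and their median log2 fold change was −1.06. Over all 525 miRNAs 36.6% were called. The call was miR-672-5p, at 12.3, 34.9 and 15.8 CPM in progenitors and 177, 224 and 184 CPM in whole kidney (log2 fold change −3.16, SE 0.344, edgeR adjusted p = 1.4e-05). Its groups were far apart. miR-574-5p, the most abundant of the 5, was at 227 ± 7.49 and 183 ± 21.9 CPM (SD, n = 3 each), and its log2 fold change was 0.31 (edgeR adjusted p = 0.31). miR-1187 was at 19.5 and 15.1 CPM, miR-3082-5p at 2.42 and 9.23 CPM, and miR-32-3p at 10.4 and 22.2 CPM, and these 3 did not pass.

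Another imprinted cluster, the miRNAs between Dlk1 and Dio3 on chromosome 12, gave other values in the same fit. Of its 73 names 70 were tested, and 55 were called higher and 0 lower in progenitors, with a median log2 fold change of 1.73. DESeq2 called 47 of the 70 and limma-voom 46, and over all 525 miRNAs edgeR called 19.4% higher and 17.1% lower. Its summed CPM was 28360, 51910 and 61580 in progenitors against 14530, 15890 and 17110 in whole kidney. The 3 progenitor libraries differed more from each other here than in the sum over the 4 families.

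Some markers of other cell types differed between the groups, while others, the stromal and leukocyte names among them, were not called. All 5 epithelial miRNAs were lower in progenitors, with summed CPM of 214, 366 and 86.7 against 23360, 24830 and 21250 in whole kidney. miR-200a-3p was the most abundant, and miR-141-3p had 0 counts in all progenitor libraries. Both endothelial names were lower, led by miR-126a-3p, with sums of 418, 595 and 578 against 20130, 21310 and 18150 CPM. The depletion used Epcam, an epithelial surface protein, CD105, which endothelial cells carry, Ter119, an erythroid antigen, and CD140a, which stromal cells carry.

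All 4 erythroid names, led by miR-451a, were lower in progenitors, where they summed to 382, 281 and 176 CPM against 1489, 1474 and 762 CPM in whole kidney. Both names of smooth muscle and pericytes, led by miR-143-3p, were lower, with mean sums of 25110 ± 3472 and 63200 ± 7376 CPM (SD, n = 3 each). Of the stromal names, led by miR-199a-3p, 0 of 3 passed in edgeR, at 16600 ± 3978 and 13430 ± 410 CPM. Of the leukocyte names, led by miR-142a-3p, 0 of 4 passed in edgeR, at 104 ± 45.1 and 83.1 ± 20.1 CPM. In both lists 0 names had an unadjusted edgeR p under 0.05, and DESeq2 and limma-voom called 0 as well.

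Skeletal muscle names had 1 of 3 called higher in progenitors. This was miR-206-3p, at 187, 281 and 65.7 CPM in progenitors and at 0, 15.7 and 2.92 CPM in whole kidney. The list summed to 300, 438 and 131 CPM against 66.2, 113 and 61.3 CPM. miR-133a-3p had 0 counts in MNP6 and MWK2, and miR-206-3p in MWK1. The part of these cell types in the value of miR-669c-5p was not tested.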

How the data were processed

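Reads were trimmed and aligned to mm10 by the authors with Bowtie2 (2.2.3 in the submitters' processing notes), and known miRNAs were counted with miRDeep2. The authors deposited expected counts, not normalized, for each pair of mature miRNA and precursor. Whole numbers filled all but 3 rows, and all values were rounded. The highest count over the rows of a mature name was kept in each library. The test had been planned for whole counts and was applied to the rounded expected counts.

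Names whose counts in the 6 libraries added up to more than 10 entered edgeR 4.0.16 (TMM scaling, quasi-likelihood test, Benjamini-Hochberg adjustment over 525 names) in R 4.3.3. DESeq2 1.42.0 and limma 3.58.1 (limma-voom) were alternatives. SE was obtained from the log2 fold change and its F statistic, and 95% intervals use SE with the fit's degrees of freedom. Steps were tested on simulated data. Precursor positions were set against the GENCODE annotation of the same build, and figures used matplotlib 3.10.9.

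Groups came from the sample labels. The columns MNP6 and MWK6 match no single sample name, so they were used by group and carry no replicate number.

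Members and lists were chosen with earlier results of these data known. Named members were those past the threshold, the 10 most abundant, the most abundant of each family and arm, the 2 largest log2 fold changes in each direction, and names with identical counts to these. miR-466m-5p, miR-466b-5p and others of the identical sets were named after values were seen.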

Additional observations from a re-analysis of the deposited data

How the results depend on the processing

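miR-669c-5p was higher in progenitors under all 17 alternatives, with log2 fold changes from 0.65 to 0.93 and adjusted p from 0.0024 to 0.053 in edgeR, DESeq2 and limma-voom, and lost its call in 1 of them, without MWK1. Leaving out 1 library gave 0 to 2 members past the threshold, with 0 without MWK1, where 28.4% of all miRNAs passed, and 2 without MWK6, where 33.3% did. The replicate block in the 4 numbered libraries gave 1 member of 39 tested beside 31.4% of all miRNAs, and the same 4 libraries without the block gave 2 beside 27.5%. The second was miR-669n (log2 fold change 1.84 in both, edgeR adjusted p = 0.038 without and 0.051 with the block; range over its alternatives 0.017 to 0.36). Both groups came from 3 litters, with each replicate from a single litter, but the sources used here do not say that equal numbers mark the same litter. The differences between replicates 1 and 2 of the groups had a correlation of 0.039 across miRNAs. All other alternatives gave 1 member.

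Scaling by library totals moved the members' median log2 fold change to 0.22 and that of all miRNAs from −0.01 to 0.19, so the members moved with the rest. Leaving out 1 library gave medians from −0.05 to 0.18. With identical names kept once the median was −0.056. The ratio of summed CPM, 0.965 in the reported values, was 0.846 with rows summed, 1.12 with library totals, 0.954 with identical names kept once and 1.03 when miR-467b-5p was left out as well, a step added after the data were seen, and 0.891 to 1.04 with 1 library left out.

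Signs turned for the following members, none of them called, and the cause was not tested. The log2 fold change of miR-466i-5p was 0.0059 with DESeq2 and with its size factors, 0.19 with library totals, 0.037 with over 10 counts in every library, 0.0080 with rows summed, 0.014 without MNP6 and 0.16 without MWK2. With library totals, miR-467e-5p was at 0.034, miR-669a-5p and miR-669p-5p at 0.14 and miR-669o-5p at 0.083. The last was at 0.23 with and without the block, 0.14 without MNP2 and 0.45 without MWK6. miR-669a-5p and miR-669p-5p were at 0.052 without MNP6 and 0.093 without MWK2. miR-669l-5p was at −0.048 with limma-voom, −0.27 with the block, −0.26 without it, −0.37 without MNP6 and −0.075 without MWK1. miR-467a-3p and miR-467d-3p were at −0.0097 with limma-voom, −0.10 without MNP1, −0.034 without MNP2 and −0.086 without MWK6. miR-297a-3p, miR-297b-3p and miR-297c-3p were at −0.25 without MNP2, −0.13 without MWK1 and −0.11 without MWK2, miR-466a-3p and miR-466e-3p at −0.12 without MNP2, and miR-297b-5p at 0.014 without MNP1. With 1 library left out, the highest value was 0.62 for the 3 miR-297 names of 3p arms and 0.84 for miR-466a-3p and miR-466e-3p, and the lowest was −0.71 for miR-297b-5p, −0.14 for miR-466i-5p and −0.34 for miR-669o-5p. The 27 members with a mean under 10 counts had a median SE of 0.622.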
